A study of Mus musculus with 6 samples.

Results

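The ribosomal protein genes were taken by name from the gene table of cultured mouse cancer-associated fibroblasts. A row was a member where its symbol was Rpl or Rps followed by a number and at most the letters a, x or l and a further number, or where it was Rplp0, Rplp1, Rplp2 or Rpsa. This rule gave 89 genes of 48368 symbols, 53 of the large and 36 of the small subunit. Pseudogene symbols ending in -ps were not members. Of the 89 genes, 87 had enough counts to be tested among 17584 genes, 51 of the large and 36 of the small subunit. The other 2 were Rpl3l, a muscle form of Rpl3 with 0 to 3 estimated counts in a library, and Rpl10l, a testis form of Rpl10 with 0 to 1. A group of 81 core genes left out the second genes of paralog pairs.

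The fibroblasts came from mammary tumours of mice with the MMTV-PyMT transgene, a viral oncogene driven by a mammary tumour virus promoter. All 6 libraries therefore share that transgene, and every mouse carried at least 1 disrupted copy of Hic-5, a focal adhesion adaptor protein encoded by Tgfb1i1. The HET group, with 3 libraries, was Hic-5+/-, and the KO group, with 3 libraries, was Hic-5-/-, with no wild-type group among the samples. Total RNA was made into strand-specific libraries after removal of ribosomal RNA, and the series text calls the 3 libraries of a group technical triplicates. The library titles carry numbers that differ from each other, except that HET replicate 3 and KO replicate 3 have the same number. What these numbers stand for is not given. Nothing in the labels says that the libraries came from separate animals, so a p-value here speaks of spread among these libraries alone. Pairs of libraries of a label differed far beyond counting noise (chi-square over its degrees of freedom, 156 to 339). Values of a group are given below in the order of replicates 1, 2 and 3.

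A ribosome has a small subunit, which reads the messenger RNA, and a large subunit, which joins amino acids, and each ribosomal protein is normally needed in 1 copy per ribosome, except the paired stalk proteins Rplp1 and Rplp2. The messenger RNAs of ribosomal proteins and of many translation factors begin with a C followed by a tract of C and T (U in the RNA). They are known as TOP mRNAs, and Larp1 and the mTOR kinase control their translation through that tract. Ribosomal protein genes are also known for their many processed pseudogenes, intronless copies of the messenger RNA inserted elsewhere in the genome.

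The letters around some gene starts show this tract, and they are printed here because the naming rule did not use it. Each sequence runs 5′ to 3′ over 60 bases of the gene's strand, the last 20 of them transcribed. Capitals mark runs of at least 8 C or T that lie within 20 bases of the start on either side. The sequences are from RefSeq (GRCm38.p6), in which 64 members had an entry. The first 5 genes show a tract across the start, Rpl7a has the longest run printed, and the last 3 are second genes of paralog pairs.
Rpl15, chr14:18270967-18271026, minus strand: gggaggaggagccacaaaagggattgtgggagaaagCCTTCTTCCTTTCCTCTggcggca
Rpl14, chr9:120571477-120571536, plus strand: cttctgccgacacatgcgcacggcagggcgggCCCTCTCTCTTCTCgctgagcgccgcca
Rpl35, chr2:39005112-39005171, minus strand: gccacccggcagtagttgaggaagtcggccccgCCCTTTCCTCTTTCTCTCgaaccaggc
Rps18, chr17:33955646-33955705, minus strand: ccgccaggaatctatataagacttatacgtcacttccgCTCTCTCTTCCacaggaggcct
Rps6, chr4:86857348-86857407, minus strand: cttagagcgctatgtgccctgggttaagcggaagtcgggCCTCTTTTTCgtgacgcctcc
Rpl7a, chr2:26910767-26910826, plus strand: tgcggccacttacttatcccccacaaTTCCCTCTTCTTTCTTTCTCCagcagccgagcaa
Rpl22l1, chr3:28805468-28805527, plus strand: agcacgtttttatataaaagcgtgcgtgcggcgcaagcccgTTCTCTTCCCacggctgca
Rpl39l, chr16:10170188-10170247, plus strand: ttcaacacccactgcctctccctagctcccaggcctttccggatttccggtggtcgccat
Rpl7l1, chr17:46782637-46782696, minus strand: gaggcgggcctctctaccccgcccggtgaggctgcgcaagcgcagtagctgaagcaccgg

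Such a run was found in 31 of 76 member windows (40.8%), and in 16.05% of the 32851 windows of all genes. A C exactly at the listed start followed by at least 4 C or T was found in 17.1% of member windows and in 2.51% of all windows. These pyrimidine features were read on the gene's strand. Other short motifs were searched on both strands over 300 bases, 250 before and 50 after the start. CCGGAAG, the core recognised by ETS factors, stood in 35.5% of member windows and 8.86% of all windows. AAGATGGC, a core recognised by YY1, stood in 10.5% and 2.75%, GGGCGG in 60.5% and 35.7%, and TATAAA in 9.21% and 13.6%. Rpl39l and Rpl7l1 had no run by this rule, while Rpl22l1 had one just after its start. These are matches of letters and are given as a description.

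Library totals ran from 24954273 to 42470598 estimated counts, and 84.4% of values were whole numbers. Tgfb1i1, the targeted gene, stood at 222, 348 and 125 CPM (counts over library size, scaled by TMM) in HET and at 90.3, 0.232 and 156 CPM in KO, so transcript was present in libraries labelled KO and the groups are called by their labels. The fibroblast collagen Col1a2 was as low as 0.490 CPM in KO replicate 2, while the other 5 libraries had 576 CPM or more. That library also held the highest summed epithelial markers (80.2 CPM, against 0.909 to 8.47) and the highest summed proliferation markers (1998 CPM, against 128 to 773). The summed leukocyte and macrophage markers, mostly Lyz2, were high in HET replicate 2 (1388 CPM) and in KO replicate 3 (1123 CPM), against 17.0 to 50.3 CPM elsewhere.

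The ribosomal protein genes took 1.56% to 3.24% of a library, and the share did not separate the labels. It was 2.80%, 1.56% and 2.36% of the library total in HET and 3.24%, 2.43% and 2.12% in KO. KO replicate 1 was highest and HET replicate 2 lowest, and the groups overlapped. The means were 2.24% ± 0.627 in HET and 2.60% ± 0.581 in KO (SD, n = 3 each). Their difference of 0.360 percentage points, which was 0.0212 without HET replicate 2, was smaller than either SD (two-sided exact permutation test, p = 0.5, where 3 against 3 libraries cannot go below 0.1). Counting error was small beside this, since the Wilson 95% interval of each share was at most 0.0117 points wide. Intervals cover counting error only. In bulk RNA, fewer cells of a type and less RNA per cell cannot be told apart.

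The large subunit genes made up 1.37% ± 0.402 of HET and 1.60% ± 0.367 of KO libraries (SD, n = 3; exact permutation p = 0.5). The small subunit genes made up 0.871% ± 0.226 and 1.00% ± 0.214 (exact permutation p = 0.6). Both subunits rose and fell together from library to library. The log2 ratio of large to small subunit counts was 0.72, 0.60 and 0.60 in the HET libraries and 0.69, 0.72 and 0.61 in the KO libraries. The labels differed by 0.03 on this scale (exact permutation p = 0.5), and the sign was negative when -ps symbols were counted in (-0.007) or when medians over genes were used (-0.02).

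**Figure D1:**
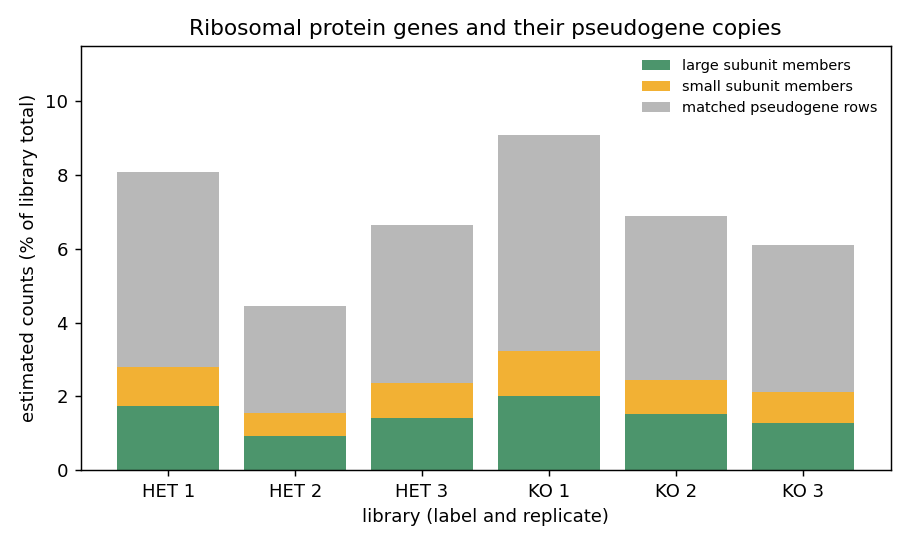
Stacked bars give the share of estimated counts (% of library total) held by large subunit genes, small subunit genes and matched pseudogene rows in each of the 6 libraries. HET replicate 2 has the lowest bar (4.45% in all) and KO replicate 1 the highest (9.10%), and the pseudogene part is 64.4% to 65.4% of every bar.

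Most members followed 1 library pattern. HET replicate 2 was the lowest library for 66 of the 87 tested genes (75.9%), against 21.7% of all genes tested. KO replicate 1 was the highest library for 54 members (62.1%, against 15.9% of all genes) and HET replicate 1 for 27 (31.0%, against 15.3%). On average over the members, log2 CPM stood 0.25 above, 0.41 below and 0.06 above the gene's mean in HET replicates 1 to 3. It stood 0.41 above, 0.19 below and 0.12 below in KO. HET replicate 2 also had the lowest summed proliferation markers (128 CPM) and the highest summed leukocyte and macrophage markers, and KO replicate 3, with the second highest leukocyte sum, had the second lowest ribosomal protein share. KO replicate 2, with the highest proliferation sum, was not high in ribosomal protein share (2.43%). Ptprc, which marks all leukocytes, reached 8.18 CPM in the first and 5.66 CPM in the second of these libraries, and 0 to 0.0454 CPM in the others. The part of these cells or of growth in the ribosomal protein levels was not tested.

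**Figure D2:**
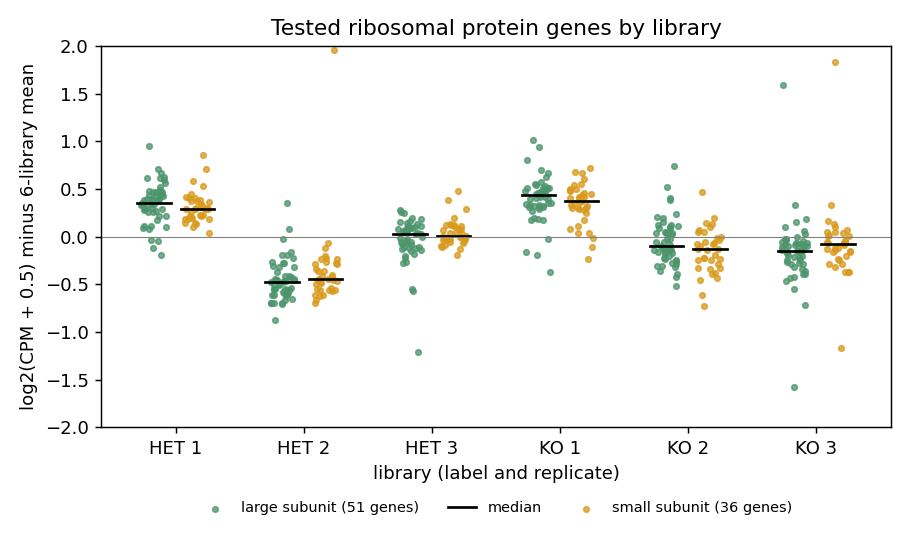
Points are the 87 tested ribosomal protein genes, plotted as log2(CPM + 0.5) minus the gene's mean over the 6 libraries, with black lines at the median of each subunit. Both subunits are low in HET replicate 2 and high in HET replicate 1 and KO replicate 1; 7 points of 2 genes lie outside the plotted range.

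Gene by gene, no member passed the test between labels. With edgeR's quasi-likelihood test and Benjamini-Hochberg adjustment at 0.05, 0 of 87 members and 0 of all 17584 genes were called (background 0%). At an unadjusted p under 0.05 there was 1 member, against 8.59% of all genes. It was higher in KO (background 4.3%), and 0 members were lower at that level (background 4.29%). A log2 difference of at least 1 in size was fitted for 1 member, Rps4l, against 14.9% of all genes. DESeq2 called 0 members and 232 genes (1.32%). The direction was more often up, with 59 members higher and 28 lower in KO and a median log2 fold change of 0.10, beside 50.9% higher and a median of 0.01 over all genes. This balance turned without HET replicate 2, when 21 of 87 were higher and the median was -0.08, and without KO replicate 1, when 23 were higher and the median was -0.11. The member median was 0.02, with 46 of 87 higher, when libraries were scaled by the core ribosomal protein sum. That setting evens out the sum of these same genes between libraries, so a small member median is built into it. It moved the median of all genes to -0.10. By library total alone the member median was 0.23, with the median of all genes at 0.15. The mean log2 level of the members varied between libraries of a label with an SD of 0.33. Every KO library lay above every HET library for 1 of 87 members, against 8.09% of all genes, and below for 0 of 87, against 7.4%.

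**Figure D3:**
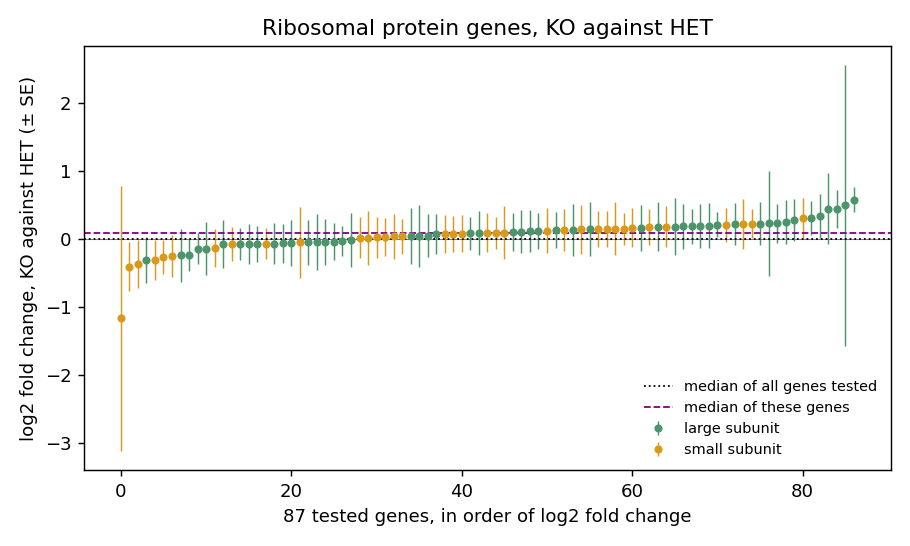
Each point is 1 of the 87 tested genes with its log2 fold change in KO against HET (± SE), in order of size, coloured by subunit; lines mark the median of these genes (0.10) and of all genes tested (0.01). All but Rps4l and Rpl7l1 lie between -0.5 and 0.5, and the longest bars belong to Rps4l at the left and Rpl39l at the right.

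Among large subunit genes, Rpl7l1 had the smallest p. Rpl7l1 (ENSMUSG00000063888, chr17:46773907-46782672, GRCm38) is a relative of Rpl7 found on maturing large subunits. Its level was 99.1, 80.98 and 98.3 CPM in HET and 140, 150 and 126 CPM in KO. It was the single member whose groups did not overlap. The log2 fold change was 0.58 ± 0.19 (SE; edgeR's quasi-likelihood test, adjusted p = 0.579 and unadjusted p = 0.0191). With its 6 matched pseudogene rows added in, the fold change was 0.57 ± 0.19 and the groups again did not overlap. Rpl27, a protein of the outer large subunit, stood at 113, 67.1 and 99.6 CPM in HET and 146, 140 and 96.5 in KO, with a log2 difference of 0.45 ± 0.28. KO replicate 3 lay among the HET libraries. Rpl18 had 158, 99.4 and 140 CPM against 192, 157 and 145, and a difference of 0.31 ± 0.25. Rpl24, which forms a bridge to the small subunit, had 92.1, 76.0 and 97.2 CPM against 107, 103 and 97.1, and a difference of 0.21 ± 0.18. In Rpl18 and Rpl24, 1 HET library lay above the lowest KO library, and with pseudogene rows added the groups of Rpl24 no longer overlapped (family fold change 0.22 ± 0.22). The lowest p in the other direction within the large subunit was that of Rpl22, an RNA-binding protein, at 303, 216 and 306 CPM in HET and 225, 215 and 262 in KO (log2 difference -0.23 ± 0.23). Without HET replicate 2 the differences of Rpl27, Rpl18 and Rpl24 were 0.26, 0.14 and 0.12, and that of Rpl22 was -0.38. Adjusted p was 0.633, 0.693, 0.710 and 0.752 for Rpl27, Rpl18, Rpl24 and Rpl22 by edgeR's quasi-likelihood test.

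In the small subunit, Rps13 was the highest-placed gene by p on the upper side. It stood at 46.5, 31.9 and 42.8 CPM in HET and 51.6, 45.8 and 44.9 CPM in KO, with a log2 difference of 0.23 ± 0.21, and HET replicate 1 lay inside the KO range. Rps29, a small zinc-binding protein, was at 92.7, 54.1 and 55.5 CPM in HET and 47.9, 33.9 and 71.4 in KO (-0.40 ± 0.36). Rps7 was at 121, 48.3 and 66.7 against 65.7, 52.6 and 64.5 CPM (-0.37 ± 0.36), and its sign turned to 0.09 without HET replicate 1, the library that carries its high value. Rps20 was at 391, 307 and 407 against 361, 244 and 319 CPM (-0.26 ± 0.25). Rps2, near the channel where messenger RNA enters, was at 324, 164 and 248 against 223, 198 and 177 CPM (-0.30 ± 0.30). Leaving out 1 library took Rps29 to -0.10 (HET replicate 1), -0.18 (KO replicate 2) or -0.71 (KO replicate 3), Rps20 to -0.12 (KO replicate 2), Rps2 to -0.04 (HET replicate 1) or -0.52 (HET replicate 2) and Rps13 to 0.09 (HET replicate 2). The groups of the 4 genes lower in KO overlapped, and the value of Rps2 became 0.06 when its 79 matched pseudogene rows were added in. Adjusted p by edgeR's quasi-likelihood test was 0.726 to 0.748 over these 5 small subunit genes. Rps29 (chr12:69157722-69159186) and Rpl36al (chr12:69182731-69184083) lie near each other on 1 chromosome, a pair singled out after the values were seen. Rpl36al was at 189, 103 and 106 CPM in HET and 89.2, 88.2 and 145 in KO, so in both genes HET replicate 1 was highest, KO replicate 3 second and KO replicate 2 lowest.

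Rpl39l and Rps4l, both second genes of paralog pairs, varied most between libraries. Rpl39l (chr16:10170226-10174911), a form of Rpl39 known from testis, was at 0.601, 12.95 and 68.4 CPM in HET and 84.3, 0 and 31.3 in KO. These came from 17 estimated counts in HET replicate 1 and 0 in KO replicate 2, where a count of 0 allows up to 0.0856 CPM before TMM scaling. Rps4l (chr6:148354656-148355598), annotated as a transcribed processed pseudogene of the Rps4 family, was at 0.566, 32.0 and 57.3 CPM in HET and 10.97, 0 and 29.2 in KO. Both genes were thus nearly absent from the same pair of libraries, 1 of each label. HET replicate 1 had the highest summed fibroblast markers (16823 CPM) and KO replicate 2 the lowest (3154 CPM), a sum held mostly by collagens and Vim. Some other fibroblast markers, picked out after their values were seen, were lowest in the same pair of libraries. Thy1 was at 75.6, 791 and 1571 CPM in HET and 975, 0.980 and 170 in KO. Dcn and Lum were also lowest there, but Dcn was close in HET replicates 1 and 2 (55.0 and 59.6 CPM). Lum was at 0.0258 to 1.43 CPM in all libraries but HET replicate 3 (15.1 CPM). Col1a1, Col1a2, Col3a1, Vim, Pdgfrb and Pdgfra were not lowest in that pair. Col1a1, Col1a2 and Col3a1 were highest in HET replicate 1 (4941, 5102 and 1870 CPM). Pdgfrb was highest in HET replicate 1 (573 CPM), and Pdgfra was lowest in KO replicates 2 and 3 (124 and 143 CPM). The part of the fibroblast content in the levels of Rpl39l and Rps4l was not tested. Fold changes of Rpl39l and Rps4l were 0.50 ± 2.06 and -1.16 ± 1.95 on the log2 scale, with errors larger than the values. Their part of the ribosomal protein sum had coefficients of variation of 0.971 and 1.02 over the 6 libraries. Against these, Rpl14 varied least (0.0451), at 1.36% to 1.53% of the ribosomal protein sum. Rpl5, which binds the 5S ribosomal RNA, was also among the steadiest (0.0654).

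Of 8 listed paralog pairs, 6 were tested within each library as log2 ratios of second to first gene RPKM. RPKM is the authors' value per kilobase, mostly of the whole gene span with introns. Such a ratio needs no scaling between libraries, but its level does not say which gene had more counts. In HET replicate 1, Rpl22l1 stood at 110 CPM and Rpl22 at 303 CPM, though their ratio below is positive. With counts in place of RPKM, the difference of Rpl7l1 between labels was again 0.61. Rpl7l1 to Rpl7 was -4.06, -3.44 and -3.67 in HET and -3.28, -2.87 and -3.19 in KO. The groups did not overlap, and the difference was 0.61 (exact permutation p = 0.1, the smallest 3 against 3 libraries allow; 0.6 after Benjamini-Hochberg adjustment over 6 pairs). Rpl36al to Rpl36a was 2.68, 2.60 and 1.79 against 1.21, 1.88 and 2.21, a difference of -0.59. Rps27l to Rps27, of which Rps27l is a known p53 target, was -0.21, 0.01 and 0.55 against -0.12, -0.26 and -0.14, a difference of -0.29, which was -0.07 without HET replicate 3. The difference of Rpl36al was -0.31 without KO replicate 1. Groups overlapped in both pairs (exact permutation p = 0.3 each). Rpl22l1 to Rpl22 was 0.61, -0.07 and -0.11 against 1.23, 0.12 and -0.22 (difference 0.23, exact permutation p = 0.7). Each label's highest value was in its replicate 1, but replicate numbers do not pair libraries. Rpl39l to Rpl39 ran from -11.86 to -2.44, and Rps4l to Rps4x from -10.61 to -1.40, where the 0 counts of KO replicate 2 were set to 3 counts. Their differences of -0.39 and -1.80 had exact permutation p of 0.8 and 0.5, and both turned positive without that library, to 2.53 and 0.69.

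**Figure D4:**
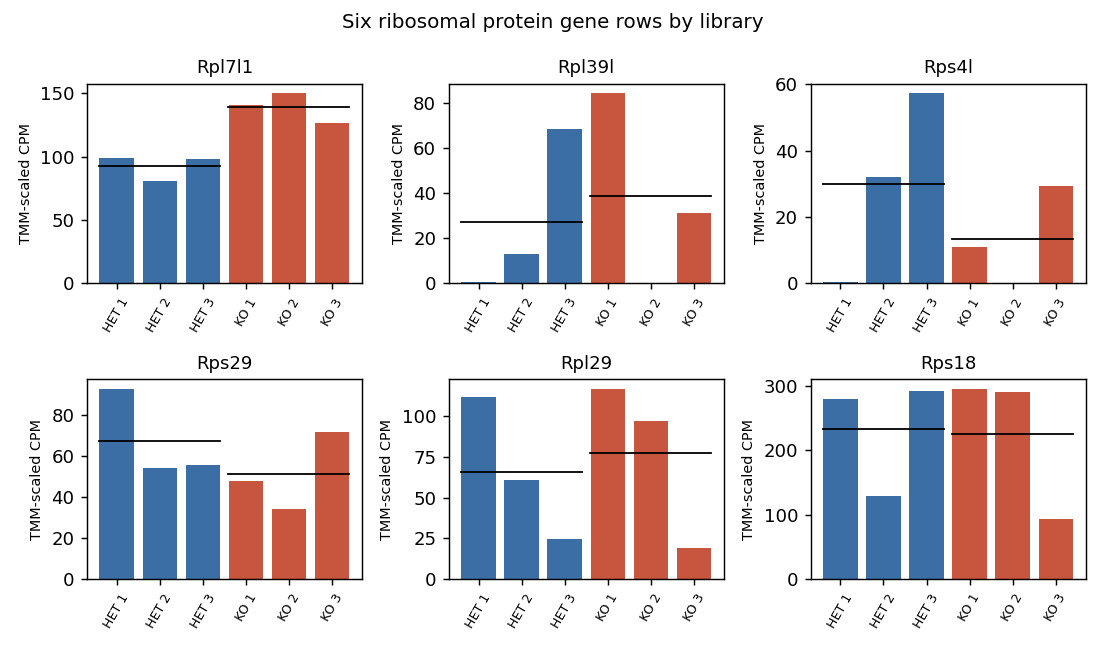
Bars give the TMM-scaled CPM of 6 rows in each library (blue HET, red KO), with black lines at group means. Only in Rpl7l1, of these 6, do the labels not overlap; Rpl39l and Rps4l are near 0 in HET replicate 1 and KO replicate 2, and Rpl29 is low in both replicates numbered 3.

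Levels between genes were compared per length. The authors' RPKM values were divided by the whole gene span, introns included: for 92.8% of 13506 genes the implied length lay within 2% of the usual ratio to the span, and for 1.59% within that of the exonic length. Rplp1, a stalk protein, had the highest mean RPKM (696), then Rps12l1 (525), Rpl41 (463), Rplp0 (328) and Rpl6l (324). Rps12l1 and Rpl6l are intronless and annotated as processed pseudogenes, so their span equals their exonic length. Per kilobase of exonic length the order began with Rplp1 (2147 CPM per kb) and Rplp0, the stalk base (1029), with Rps12l1 in place 7 and Rpl6l in place 10. The lowest RPKM values were those of Rpl3l (0.00402), Rpl10l (0.00904), Rpl11 (2.45), Rpl39l (5.79) and Rpl38 (6.25). Rpl11, which together with Rpl5 can restrain Mdm2, spans 25164 bases with 2697 exonic bases. It stood in place 87 of 89 by RPKM and place 80 per exonic kilobase. Both orders used the gene's own row alone, and the 8 matched pseudogene rows of Rpl11 held 86.5% to 87.2% of the summed counts. Rplp1 stood at 1092 ± 144 CPM in HET and 1051 ± 257 CPM in KO (SD, n = 3), and Rplp0 at 1598 ± 576 and 1817 ± 398.

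Rows of matching pseudogenes held counts as well, and whether those reads came from the parent messenger RNA was not tested. In GENCODE M21, 1410 pseudogene rows outside the members matched a coding transcript of a member at 80% identity or more over at least 50% of their length, and 1147 of them had counts. They held 2.89% to 5.86% of a library, which was 64.4% to 65.4% of the sum of members and copies. Together members and copies took 8.08%, 4.45% and 6.65% in HET and 9.10%, 6.89% and 6.10% in KO, so the order of the libraries was that of the members alone. The means were 6.39% ± 1.82 and 7.36% ± 1.55 (SD, n = 3; exact permutation p = 0.5). Of 81 tested members with matched rows, 63 had over 50% of the summed counts on those rows. With all copies added to their parents, 55 of 83 members were higher in KO, the median log2 fold change was 0.10, and 0 of 16967 genes passed edgeR's quasi-likelihood test (0 members).

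The split between a gene and its copies was nearly the same in every library. Its range over the 6 libraries had a median of 1.56 percentage points, and it was under 5 points for 74 of 81 members. The 4 members that were themselves matched as pseudogene copies of another member kept nearly fixed proportions too. Rps4l was not among these 4. Rps12l1 had 4.67 to 5.06 counts per count of Rps12, to which it is 100% identical over the matched part. Rpl6l had 0.775 to 0.811 per count of Rpl6, Rps3a2 0.760 to 0.906 and Rps3a3 0.420 to 0.453 per count of Rps3a1. Which of the near-identical loci a count came from is therefore uncertain for these genes.

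A few members, chosen after their values were seen, broke this pattern in some of the libraries. For Rps18, a small subunit head protein, the pseudogene rows held 59.0%, 59.6% and 51.2% in HET and 58.9%, 50.9% and 70.9% in KO. Its own row read 279, 128 and 292 CPM in HET and 295, 290 and 92.6 in KO, and the row Rps18-ps3 moved the other way, from 31.4% of the sum in KO replicate 2 to 58.6% in KO replicate 3. For Rpl29 the pseudogene rows held 94.2% and 95.02% in the replicates numbered 3, which carry the same number in their titles, and 79.2% to 81.4% in the other 4 libraries. The Rpl29 row was at 112, 60.9 and 24.6 CPM in HET and 117, 96.9 and 19.0 in KO. With copies included, Rpl29 had a coefficient of variation of 0.0654 as a part of the summed families, against 0.524 for its own row, and its log2 difference between labels was 0.10 ± 0.34 in place of 0.24 ± 0.77. Rpl30 had 81.9% on pseudogene rows in KO replicate 3 and 68.7% to 70.3% elsewhere. Rpl34 had 84.6% to 85.7% in HET replicates 2 and 3 and KO replicate 3, and 73.7% to 73.9% in the other 3. In these 4 genes the split overlapped between labels. Of the 3 others with a range of at least 5 points, Rps21 and Rpl35a overlapped as well, and Rpl22l1 did not. Its pseudogene rows held 56.5%, 55.2% and 54.8% in HET and 53.7%, 53.2% and 50.7% in KO. A split without overlap was not particular to Rpl22l1, since it also occurred among members with smaller ranges. Rpl10a had 67.8% to 68.4% on such rows in HET and 66.5% to 67.2% in KO. In the other direction, Rpl11 had 86.5% to 86.9% in HET and 87.0% to 87.2% in KO. How many members did so was not counted.

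**Figure D5:**
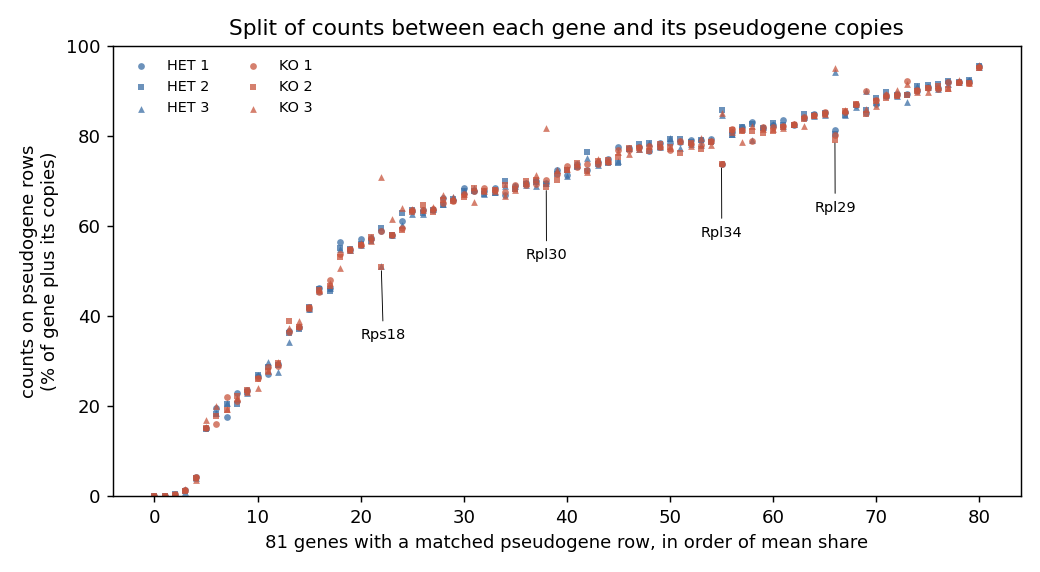
For 81 tested genes with a matched pseudogene row, points give the share of counts on those rows (% of the gene plus its copies) in each of the 6 libraries. Points of a gene mostly lie on top of each other, and Rps18, Rpl29, Rpl30 and Rpl34 are the labelled exceptions, with ranges of 12.1 to 19.99 points.

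Genes that work with the ribosomal proteins were read from listed pathways. Fau, which encodes a ribosomal protein fused to a ubiquitin-like protein, and Rack1, a small subunit scaffold, were both lowest in HET replicate 2, and their log2 fold changes were -0.03 and 0.28. Of 23 translation factors and other TOP mRNAs, 14 were higher and 9 lower in KO, with a median log2 fold change of 0.15. HET replicate 2 was the lowest library for 16 of them (69.6%, against 21.7% of all genes). The groups overlapped in all 23, as in 86 of the 87 members, while 15.5% of all genes had no overlap in either direction. Of 11 regulators of TOP mRNA translation, 5 were higher and 6 lower. Larp1, which binds the tract, was at 186, 165 and 173 CPM in HET and 222, 314 and 243 in KO (log2 difference 0.57 ± 0.22). Rptor, a subunit of mTOR complex 1, was at 39.1, 41.0 and 40.7 against 52.8, 60.1 and 49.0 (0.42 ± 0.17). Rps6kb1, the kinase of Rps6, was at 68.8, 86.5 and 89.7 against 54.8, 60.6 and 52.9 (-0.54 ± 0.18). In these 3 of 11 the labels did not overlap (15.5% of all genes), and edgeR's quasi-likelihood test gave an adjusted p of 0.579 for each. Free Rpl5 and Rpl11 can stabilise p53, and of 6 tested genes of that axis 2 were higher and 4 lower in KO, none past the threshold. The p53 target Cdkn1a was at 417, 820 and 694 CPM in HET and 589, 30.3 and 415 in KO, low in the library with almost no Col1a2.

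The genes that make ribosomes were counted in the same way. Of 20 genes of polymerase I, Myc and ribosome assembly, 19 had a higher value in KO, the median log2 fold change was 0.79, and in 10 every KO library lay above every HET library, against 8.09% of all genes. Nop2, which modifies ribosomal RNA, was at 57.0, 41.6 and 64.5 CPM in HET and 88.9, 143 and 122 in KO (1.12 ± 0.27). Myc, a transcription factor of growth genes, was at 64.5, 32.4 and 66.2 against 87.9, 165 and 151 (1.31 ± 0.38). No gene of the list passed the adjusted threshold. In 16 of the 20 the highest library was KO replicate 2 (80%, against 26.3% of all genes). That library had the highest proliferation markers and almost no Col1a2. HET replicate 2, with the lowest proliferation markers, was the lowest library for 17 of the 20 (85%, against 21.7% of all genes). Of 8 chaperones that escort single ribosomal proteins, 7 were higher in KO and in 4 every KO library lay above every HET library (8.09% of all genes), among them Grwd1, the chaperone of Rpl3, at 27.9, 14.1 and 25.7 CPM in HET and 45.6, 80.8 and 49.7 in KO (1.38 ± 0.36). Rpl3 itself was at 425, 188 and 363 CPM in HET and 448, 268 and 232 in KO (-0.04 ± 0.41). Of the 8 chaperones, 5 were lowest in HET replicate 2 (62.5%, against 21.7% of all genes). KO replicate 2 was the highest library for 4 of them (50%, against 26.3% of all genes).

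The ribosomal proteins of mitochondria, made from other nuclear genes, were set beside them. They took 0.236%, 0.204% and 0.251% of the HET and 0.294%, 0.330% and 0.281% of the KO libraries, without overlap. The means were 0.230% ± 0.0238 and 0.302% ± 0.0254 (SD, n = 3), a difference of 0.0713 points with the smallest exact permutation p that the design allows (0.1). Of 77 genes, 61 were higher and 16 lower in KO with a median log2 fold change of 0.25, and 25 lay above (8.09% of all genes) and 2 below (7.4%) without overlap. None passed edgeR's quasi-likelihood test, and 8 of 77 had an unadjusted p under 0.05, beside 8.59% of all genes. HET replicate 2 was the lowest library for 42 of the 77 (54.5%, against 21.7% of all genes). KO replicate 2 was the highest for 31 (40.3%, against 26.3% of all genes). Mrps27, of the mitochondrial small subunit, was at 18.4, 17.9 and 20.6 CPM in HET and 34.8, 35.9 and 31.7 in KO (0.85 ± 0.19). The log2 ratio of cytoplasmic to mitochondrial ribosomal protein counts was 3.57, 2.93 and 3.23 in HET and 3.46, 2.88 and 2.91 in KO, and its difference of -0.16 was within the spread (exact permutation p = 0.5).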

How the data were processed

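The libraries were made from Trizol-extracted total RNA, per the labels' protocols. The submitters' processing notes name cutadapt 1.2.1, Bowtie2 and Partek, with the builds GRCm38 and mm10, while annotation and counting are not given in the sources used here. For every gene and library the authors deposited 1 unscaled estimated count and 1 RPKM value. In each table, 30 rows without a gene symbol were left out and 7 symbols on several rows were summed. Estimated counts were rounded, filtered by filterByExpr, scaled by TMM and tested with the quasi-likelihood test of edgeR 4.0.16 in R 4.3.3 over 17584 genes (two-sided, Benjamini-Hochberg, threshold 0.05). Fold changes are KO against HET. Shares and ratios were tested with exact permutation tests (scipy 1.17.1). This fit was also tested on simulated data, where 200 genes were changed. With a dispersion (spread between libraries beyond counting noise) of 0.05, it recovered 46% of 2-fold and 98% of 4-fold changes. With a dispersion of 0.4 it recovered 2% of 2-fold, 0% of 4-fold, 50% of 8-fold and 72% of 16-fold changes. The dispersion of these libraries was not set beside either setting, so these rates do not give the power of this data set.

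Pseudogene transcripts of GENCODE M21 were matched to members with blastn 2.17.0. Lengths and positions came from the same annotation and starts from RefSeq. Members and lists were chosen with earlier results of these data known. The rule for named genes took, of the members, the 5 smallest p in each direction, the 5 highest and 5 lowest mean RPKM, the 3 largest and 3 smallest coefficients of variation of the share of the ribosomal protein sum, every paralog pair and every untested member, and up to 4 genes per list. Alternatives were other scalings and filters, DESeq2 1.42.0, limma 3.58.1, log2(RPKM + 1) and log2(RPKM + 0.1), a block for the title number that a HET and a KO library share, and each library left out in turn. Sums with matched pseudogene rows and a fit without both of those libraries were added after seeing the data. The 37 symbols of the mitochondrial genome were listed at 0 in every library, so leaving them out changed no share. Some genes that the rule names are not reported here.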

Additional observations from a re-analysis of the deposited data

How the results depend on the processing

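The number of genes past the threshold across all genes was 0 by edgeR's quasi-likelihood test in every scaling, filter and left-out library run, and 232 by DESeq2; the number at an unadjusted p under 0.05 was 1511 by the first and 1955 by the second. The ribosomal protein members past the threshold were 0 under all alternatives. The large to small subunit log2 ratio reversed to -0.0074 with members and -ps symbols together and to -0.0179 as a difference of median log2 CPM; the cause was not tested. Paralog ratio differences changed sign when single libraries were left out: Rpl22l1 ran from -0.20 to 0.53, Rpl39l from -2.47 to 2.53 and Rps4l from -4.11 to 0.69. Rps7 ran from -0.62 to 0.0896, and Rps2 was 0.0597 with matched pseudogene rows summed into their parents. The member median ran from -0.11 to 0.28 and the difference in share from 0.0212 to 0.639 points over the left-out libraries. Replicate numbers pair no libraries; with a block for the title number that HET replicate 3 and KO replicate 3 share, the replicate block gave 0 genes past the threshold, 1056 at an unadjusted p under 0.05 and a member median of 0.08. The other 304 values stayed on their side of the threshold or moved by less than the spread between libraries. With 3 libraries a label, exact tests cannot go below 0.1, and the large spread between libraries limits what can be detected.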
